A study of Mus musculus with 23 samples.

Results

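Denervated skeletal muscle of mice labelled NRF1PAL-PAX4 double KD, in which 2 transcription factors were knocked down, was compared with denervated muscle of mice labelled NRF1PAL KD, in which NRF1 alone was knocked down. The 6 libraries, 3 of each genotype, were taken by their labels and column names from a table of 8 libraries, in a series of 23 labelled samples. All came from muscle at 10 d after denervation, the cutting of its nerve supply, which leads to atrophy. The NRF1 knockdown and the denervation are thus common to both groups, and the added PAX4 knockdown is the labelled difference. The level without either knockdown came from 2 wild-type (WT) libraries of the same table, labelled WT con 2 and WT con 3, also at 10 d. WT con 1 was not analysed here. The sources used here do not give the knockdown method, its promoter, the muscle, the age or sex of the mice, or whether animals were pooled. Nor do they tie each library to an animal of its own, and a p-value here reflects the spread between libraries alone, part of which may be technical. All 15624 genes of the table were compared.

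The series title asks how several transcription factors together control the genes of the proteasome. The proteasome is the barrel-shaped protease that degrades proteins tagged with ubiquitin. Its 20S core holds the proteolytic sites, and its 19S particles recognise, unfold and feed in the substrates. In muscle that has lost its nerve, breakdown of contractile proteins by this route removes fibre mass. NRF1 in these labels is alpha-PAL, the product of Nrf1, which binds a GC-rich palindrome and is best known for genes of mitochondrial respiration. It is a different protein from NFE2L1, which shares the short name. PAX4 is a paired-box homeodomain factor known from pancreatic islet development.

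Neither target could be checked well by its transcript. Pax4 had no values in this table and 0 counts in all 9 libraries of the series' first table, WT included, which allows up to 0.138 CPM (counts scaled to equal library size) in the smallest of them. Nrf1 had normalised counts of 488 and 444 in WT con 2 and 3, 499, 476 and 524 in NRF1 KD 1 to 3, and 450, 427 and 454 in double KD 1 to 3. Nrf1 was not lower in NRF1 KD than in WT con (log2 fold change 0.10, SE 0.12, limma adjusted p = 0.618). It was 0.17 lower on the log2 scale in double KD than in NRF1 KD (SE 0.10, adjusted p = 0.575). Group names below are therefore those of the labels, and transcripts do not show that either factor was reduced. The 8 libraries held 23740769 to 30165765 reads. Transcripts of 17 listed mitochondrially encoded genes made up 6.33% to 8.61% of normalised counts. All 10 markers of muscle fibres were measured in every library, at a summed level of 1529531 to 2164773 normalised counts.

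The number of genes called with the added PAX4 knockdown depended on the fit. At a Benjamini-Hochberg adjusted p under 0.05 (limma), 12 genes rose in double KD (0.0768% of 15624) and 9 fell (0.0576%). At an unadjusted p under 0.05, 696 genes were higher (4.45%) and 1060 lower (6.78%). Count models on the recovered reads called 11 higher (0.0704%) and 8 lower (0.0512%) with edgeR, and 120 higher (0.768%) and 269 lower (1.72%) with DESeq2. The limma fit took its spread from all 8 libraries, WT con 2 and 3 included. Fitted on only the 6 knockdown libraries, limma called 45 higher and 34 lower. In the fit over all 8, 1184 genes rose (7.58%) and 581 fell (3.72%) in NRF1 KD against WT con. In double KD against WT con, 373 rose (2.39%) and 265 fell (1.7%). These last comparisons share libraries with each other and with the main one, and are set side by side only. The limma counts of 12 and 9 moved with single libraries. Without NRF1 KD 1 there were 20 higher and 124 lower genes, without NRF1 KD 2 there were 9 and 0, and without NRF1 KD 3 there were 6 and 1. Without double KD 1 there were 69 and 89, without double KD 2 there were 1 and 1, and without double KD 3 there were 1 and 0. Of the 21 called genes, 12 were protein coding, 5 were pseudogenes, and 10 had a mean of at least 100 normalised counts. In all 21 the 3 libraries of one group lay wholly above the 3 of the other. Over all genes, every double KD library was higher for 1255 (8.03%) and lower for 1294 (8.28%).

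**Figure D1:**
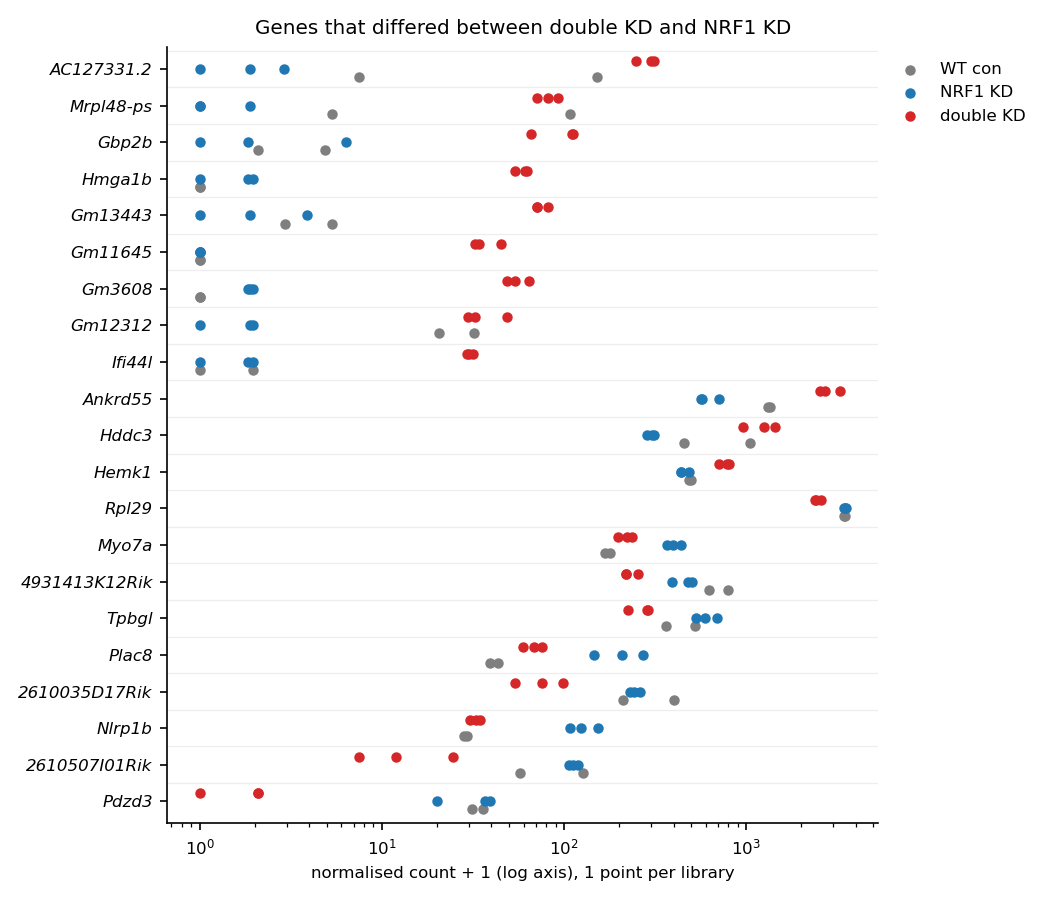
Normalised counts plus 1 on a log axis (x) for the 21 called genes (y), 1 point per library: WT con in grey, NRF1 KD in blue, double KD in red. The 9 genes at the top sit at 5.37 normalised counts or fewer in NRF1 KD (Gbp2b the highest), while Ankrd55, Hddc3 and Hemk1 are expressed in both groups and higher in double KD.

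Ankrd55, which encodes an ankyrin repeat protein, was the called gene of highest level among those that rose. It lies on chromosome 13 (GRCm38 chr13:112288451-112384002). Its normalised counts were 568, 706 and 562 in NRF1 KD 1 to 3 and 2722, 2547 and 3274 in double KD 1 to 3. WT con 2 and 3, at 1316 and 1346, lay between the groups. The means were 612 ± 81.3 (SD, n = 3) and 2848 ± 379.6 (SD, n = 3), a 4.65-fold difference. Ankrd55 rose by 2.22 on the log2 scale (SE 0.12, 95% interval 1.95 to 2.49, limma adjusted p = 4.58e-05). Against WT con it fell by 1.13 in NRF1 KD (adjusted p = 0.00234) and rose by 1.09 in double KD (adjusted p = 0.00435). It was called under all 15 alternative settings, with an adjusted p of at most 0.0015, and no other of the 21 genes was.

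In the first table, which holds innervated muscle as well, Ankrd55 stood at 0.493, 14.0 and 0.244 CPM in 3 innervated WT libraries and at 55.7, 118 and 90.3 in 3 denervated WT libraries. The 3 denervated libraries labelled PAX4 KO were at 45.5, 36.3 and 53.4. All 3 were lower than each denervated WT library, which is the opposite order to double KD against NRF1 KD. That difference did not pass the test (log2 fold change -0.97, SE 0.84, edgeR adjusted p = 0.636). The fit took its spread from all libraries of the first table, innervated WT included, so the SE does not describe the denervated libraries alone.

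Hddc3 and Hemk1 were the other genes above 100 normalised counts that rose and have a settled symbol. Hddc3 encodes a pyrophosphohydrolase with an HD domain. Its normalised counts were 311, 285 and 302 in NRF1 KD and 966, 1257 and 1445 in double KD, with WT con 2 at 453 and WT con 3 at 1049. WT con 2 was thus nearer to NRF1 KD, and WT con 3 lay inside the range of double KD. Hddc3 rose by 2.01 on the log2 scale (SE 0.26, limma adjusted p = 0.0168), and the call held under 9 of 15 alternatives. Hemk1 encodes a mitochondrial methyltransferase that modifies a translation release factor. It stood at 483, 436 and 438 in NRF1 KD, 498 and 488 in WT con, and 712, 784 and 808 in double KD, a rise of 0.76 on the log2 scale (SE 0.10, adjusted p = 0.0221). Here double KD stood apart from both other groups. Hemk1 rose against WT con in double KD (log2 fold change 0.64, adjusted p = 0.0182) and was called under 8 of 15 alternatives.

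Among the genes that fell, 4 had a mean of at least 100 normalised counts and a settled symbol. Plac8, a cysteine-rich protein abundant in immune cells, stood at 271, 146 and 208 in NRF1 KD, 74.7, 58.3 and 67.4 in double KD, and 38.1 and 42.7 in WT con. It fell by 1.59 on the log2 scale (SE 0.25, adjusted p = 0.0465). In bulk muscle, fewer cells of a type and less RNA per cell cannot be told apart. Myo7a, an unconventional myosin best known from sensory hair cells, stood at 394, 368 and 438 in NRF1 KD, 219.8, 234 and 198 in double KD, and 177 and 168 in WT con. It fell by 0.88 (SE 0.13, adjusted p = 0.0436). For both genes NRF1 KD was raised above WT con (log2 fold changes 2.30 and 1.20, adjusted p = 0.00234 and 0.00246), and double KD lay nearer to WT con. The call held under 6 of 15 alternatives for Plac8 and 8 of 15 for Myo7a.

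Tpbgl and Rpl29 had a different order of groups. Tpbgl, a trophoblast glycoprotein-like gene, stood at 533, 688 and 592 in NRF1 KD, 527 and 364 in WT con, and 287, 284 and 224 in double KD. It fell by 1.19 on the log2 scale (SE 0.17, adjusted p = 0.0305; 9 of 15 alternatives). Rpl29, a protein of the large ribosomal subunit, stood at 3439, 3514 and 3524 in NRF1 KD, 3432 and 3513 in WT con, and 2376, 2565 and 2406 in double KD. Its 5 libraries without the PAX4 knockdown thus agreed closely, and double KD was 0.51 lower on the log2 scale (SE 0.08, adjusted p = 0.0347; 8 of 15 alternatives). Ribosomal protein genes have near-identical processed pseudogenes, so how the authors' counting split reads among copies is uncertain for Rpl29.

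**Figure D2:**
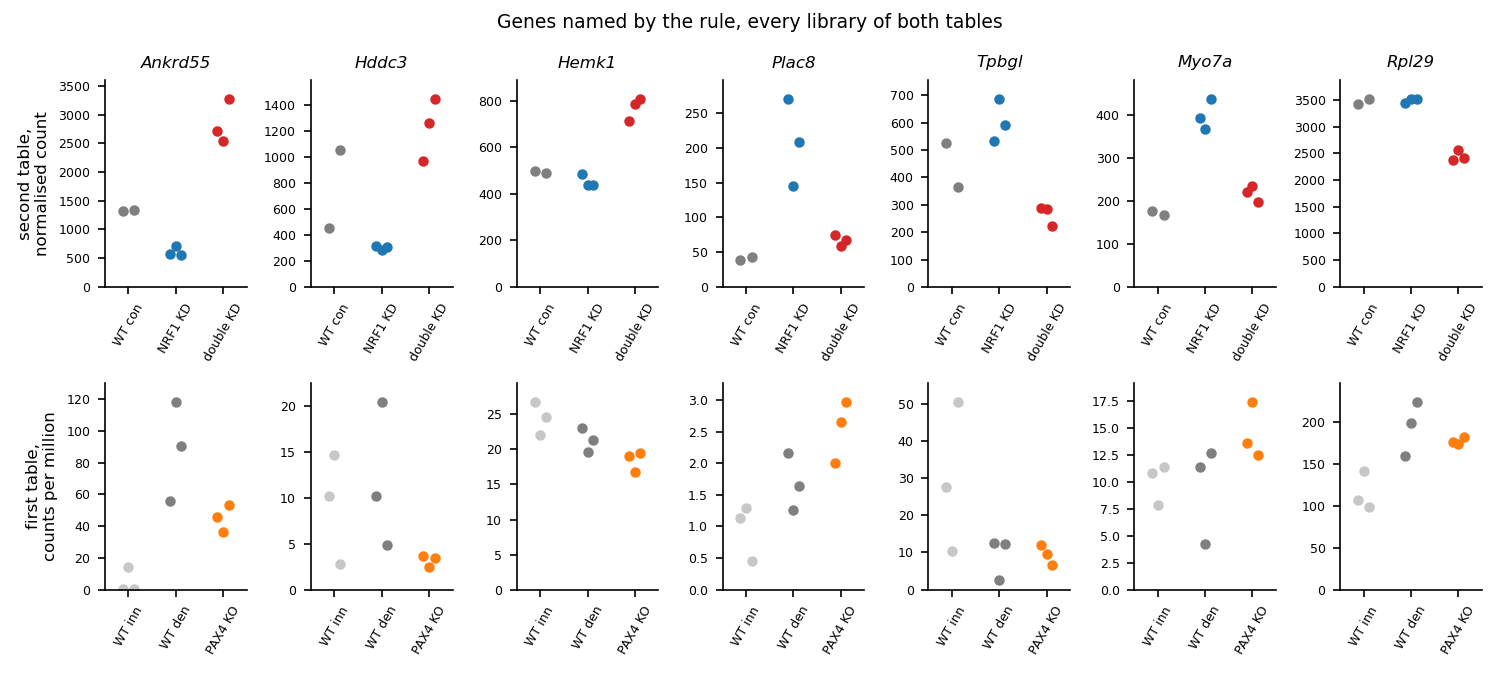
Levels of the 7 called genes named by the rule in every library: normalised counts in the second table (top, WT con, NRF1 KD and double KD) and CPM in the first table (bottom, innervated WT, denervated WT and PAX4 KO). Ankrd55, Hddc3 and Hemk1 are higher in double KD than in NRF1 KD in the top row and lower in PAX4 KO than in denervated WT in the bottom row.

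The other called genes were low or provisional. Nlrp1b, an inflammasome sensor with close paralogs, stood at 108, 122.5 and 153 in NRF1 KD, 31.9, 33.4 and 29.4 in double KD, and 28.3 and 27.2 in WT con. It fell by 1.97 on the log2 scale (SE 0.24, adjusted p = 0.0111), to a level next to that of WT con. Pdzd3, which encodes a PDZ-domain scaffold, stood at 38.4, 35.8 and 19.2 in NRF1 KD, 30.5 and 34.9 in WT con, and 1.10, 1.08 and 0 in double KD. The remaining genes that fell were the noncoding transcripts 2610507I01Rik, 4931413K12Rik and 2610035D17Rik, with log2 fold changes of -3.11, -0.98 and -1.73 (adjusted p = 0.0304, 0.0365 and 0.0465). In the first table Pdzd3 ranged from 0.0280 to 0.995 CPM among the 3 denervated WT libraries, and 2610507I01Rik from 0.183 to 2.60. Libraries with no knockdown thus also spanned a wide range for these genes.

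Of the 12 genes that rose, 9 were nearly absent from NRF1 KD, with at most 5.37 normalised counts in any library (Gbp2b). They included 3 protein-coding genes. Hmga1b, an intronless copy of the chromatin gene Hmga1, had 2 reads over the 3 NRF1 KD libraries and 160 over the 3 double KD libraries, a ratio of 97.4 at the size factors (95% counting interval 26.5 to 811). WT con 2 and 3 had no Hmga1b reads. Gbp2b, an interferon-induced guanylate-binding protein, had 7 and 262 reads (ratio 45.6, interval 21.8 to 114). Ifi44l, also interferon-induced, had 2 and 81 reads (ratio 49.3, interval 13.2 to 414). These intervals cover counting error only. Gbp2b has close paralogs, and its paralog Gbp2 was lower in double KD, at 264, 282 and 249 against 349, 435 and 497 in NRF1 KD (limma adjusted p = 0.134, DESeq2 adjusted p = 0.00629). Hmga1 itself stood at 253, 273 and 252 in double KD and 319.7, 455 and 376 in NRF1 KD (log2 fold change -0.55, limma adjusted p = 0.183, DESeq2 adjusted p = 0.0385).

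A wider rule, set after the values were seen, asked for genes with at least 20 normalised counts in every double KD library and at least 8 times the highest NRF1 KD library. It found 20 genes, and none met the rule in the opposite direction. Of the 20, 14 were pseudogenes (70%), against 2.41% of all genes with a recorded type. The 20 genes lay on 11 chromosomes where a position was recorded. In 13 of the 20, WT con 3 was high as well, while WT con 2 was at or near the level of NRF1 KD. Rps15a-ps8, a processed pseudogene of a ribosomal protein gene, was the most abundant of these, with 0, 0.894 and 0.836 normalised counts in NRF1 KD, 730, 834 and 1064 in double KD, 1.09 in WT con 2 and 871 in WT con 3. Gm3375 stood at 2.88, 2.68 and 1.67, then 690, 630 and 709, with 1.09 and 829 in WT con 2 and 3. In these 13 genes the split ran between the WT libraries as well as between the knockdown groups. The 20 include 9 of the 12 genes called higher. For them, an effect of the added knockdown and a difference between the mice, such as in strain background, cannot be told apart. The sources used here do not give the strain, so the same holds for the other called genes. Among those, Hddc3 split WT con 2 and 3 too, at 453 and 1049, while Rpl29 did not, at 3432 and 3513. Rps15a, the parent gene of Rps15a-ps8, did not share the split of its pseudogene, at 10003 and 7830 in WT con, 8368 to 9529 in NRF1 KD and 7378 to 9758 in double KD. In 6 others of the 20, Gm3608, Gm11645, Gm13443, Hmga1b, Gbp2b and Ifi44l, both WT con libraries had at most 5 normalised counts, and only Gm12312 was present in both. Among all genes 42 were high in WT con 3 and low in WT con 2 by the same rule, and 17 the reverse.

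The 20 called genes with a recorded position lay on 9 chromosomes. Chromosome 11 held 6 of them, Hmga1b, Gm12312, Nlrp1b, 2610507I01Rik, 4931413K12Rik and 2610035D17Rik, and it holds 8.16% of the genes with a position. Neighbours on the same chromosome were sometimes close. Gm12312 and Nlrp1b lie 0.794 Mb apart and moved in opposite directions. Rpl29 and Hemk1 on chromosome 9 are 0.896 Mb apart and also moved in opposite directions, while Myo7a and Tpbgl on chromosome 7 are 1.5 Mb apart and both fell. By unadjusted p under 0.05, chromosome 11 had 12.3% of its genes against 11.2% over all chromosomes.

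**Figure D3:**
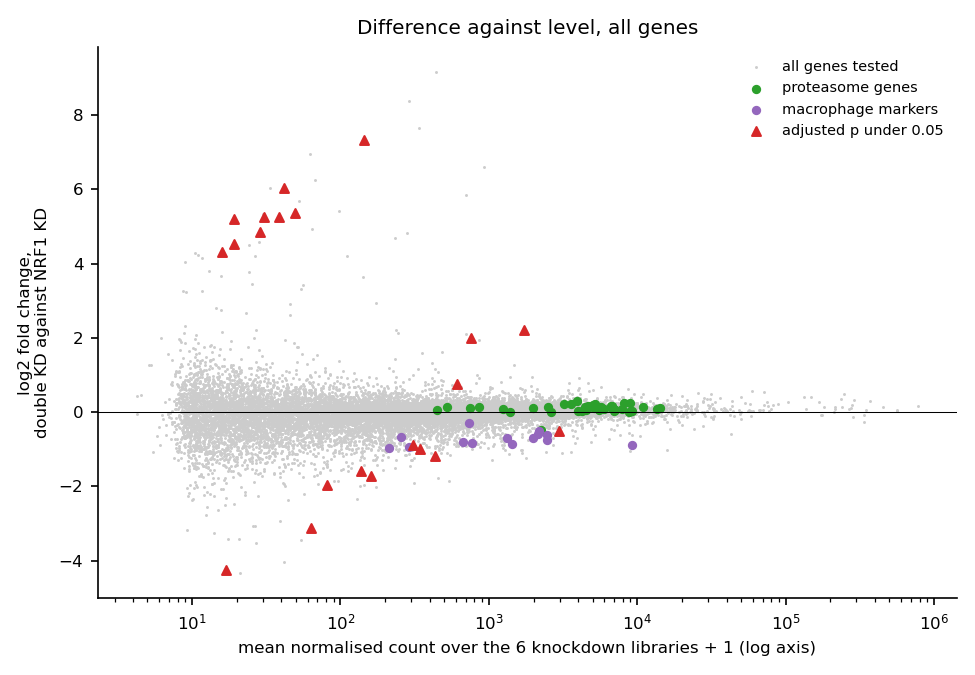
Log2 fold change of double KD against NRF1 KD (y) against the mean normalised count over the 6 libraries plus 1 on a log axis (x) for 15624 genes. The 40 proteasome genes (green) lie close to 0, the 14 macrophage markers (purple) lie below 0, and the called genes (red triangles) include 9 far above 0 at low level.

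Proteasome genes did not pass the test in either direction. Of 41 genes for core subunits, 19S subunits and their assembly factors, 40 were measured (Psmg3 had no values here). By limma 0 of 40 were called, as by edgeR and DESeq2. At an unadjusted p under 0.05, 3 were higher and 1 was lower, beside 4.45% and 6.78% of all genes. The log2 fold change was positive for 37 of 40 and had a median of 0.11, beside 0.01 over all genes, of which 51% were positive. The 10 markers of muscle fibres were all positive too (median 0.15), and their part in the proteasome values was not tested. In NRF1 KD against WT con, 26 of the 40 fell and none rose (median -0.41), where 3.72% of all genes fell. In double KD against WT con, 7 fell and none rose (median -0.30), where 1.7% of all genes fell. Between the knockdown groups, the 95% interval of the single gene included 0 for 36 of 40. For 39 of the 40 genes the interval reached no lower than -0.24 and for all 40 no higher than 0.53; the exception was Psmb5.

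In the 20S core, whose outer alpha rings gate the entry of substrates, all 7 alpha genes were positive (median 0.14, 0 with an unadjusted p under 0.05). Psma3 had 3569, 3321 and 2956 normalised counts in NRF1 KD, 3615, 3625 and 4311 in double KD, and 5015 and 4317 in WT con. The double KD libraries were all above those of NRF1 KD, with a log2 fold change of 0.23 (SE 0.11, adjusted p = 0.462). Of the 7 beta genes, which carry the proteolytic sites, 5 were positive (median 0.07). Psmb3 had 3668, 3734 and 3104 in NRF1 KD, 3902, 4109 and 4863 in double KD, and 5382 and 5350 in WT con (log2 fold change 0.29, SE 0.11, 95% interval 0.05 to 0.53, adjusted p = 0.320). Psmb5, the chymotrypsin-like subunit, went the other way. It had 2579, 2949 and 2339 in NRF1 KD and 1732, 1837 and 2082 in double KD, with a log2 fold change of -0.47 (SE 0.17, 95% interval -0.85 to -0.10, adjusted p = 0.310). WT con 2 and 3 were themselves apart for Psmb5, at 3483 and 2075.

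In the 19S particle, the 6 ATPases of the base, which unfold substrates, were all positive (median 0.06). Psmc6 had 7616, 7694 and 6944 in NRF1 KD and 8009, 8430 and 9924 in double KD, below 10572 and 10000 in WT con (log2 fold change 0.24, SE 0.10, adjusted p = 0.393). Psmc2, an ATPase at the entry of the core, had 6936, 7805 and 6195 in NRF1 KD, 7709, 6786 and 7229 in double KD, and 9682 and 9924 in WT con. Its groups overlapped, and the log2 fold change was 0.06 (SE 0.10, 95% interval -0.17 to 0.28, adjusted p = 0.868). Psmc2 fell against WT con in NRF1 KD (log2 fold change -0.50, adjusted p = 0.0202), while double KD had -0.44 (adjusted p = 0.0568). The 4 other base subunits and ubiquitin receptors had a median of 0.03. All 4 fell against WT con in both knockdown groups, where 3.72% (NRF1 KD) and 1.7% (double KD) of all genes fell. The 9 lid genes had a median of 0.14. Psmd14, the lid enzyme that removes ubiquitin from arriving substrates, had 2994, 3232 and 2686 in NRF1 KD, 3231, 3425 and 3679 in double KD, and 4228 and 4098 in WT con (log2 fold change 0.22, SE 0.09, adjusted p = 0.412). The 7 measured assembly chaperones had a median of 0.10.

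**Figure D4:**
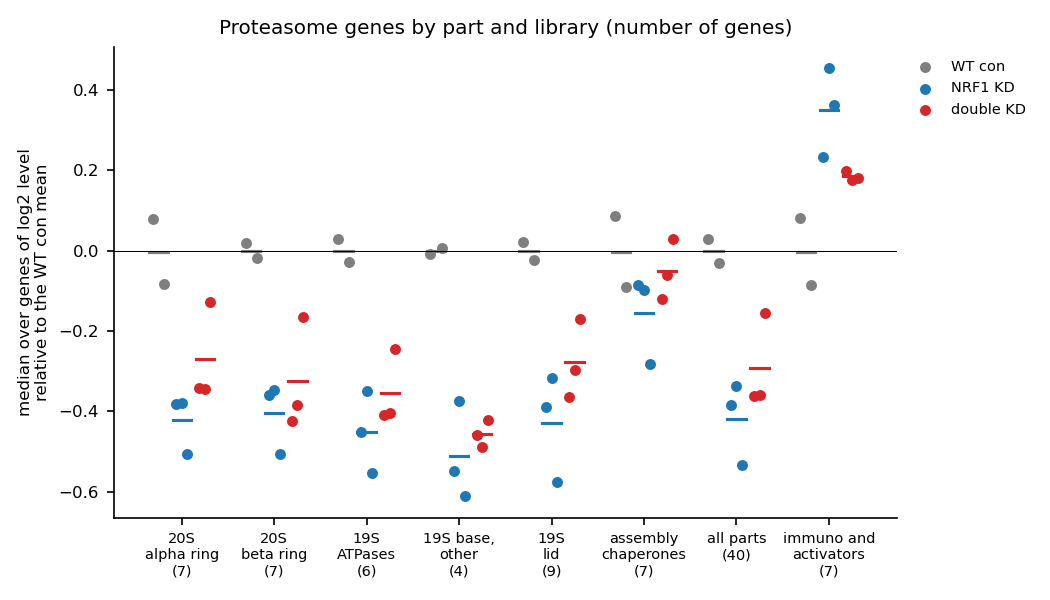
Median over the genes of each proteasome part of the log2 level relative to the WT con mean (y), 1 point per library and a bar for the group mean. Over all 40 genes NRF1 KD lay at -0.38, -0.34 and -0.53 and double KD at -0.36, -0.36 and -0.16, so the groups overlap below WT con.

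By library, the median level of the 40 genes relative to the WT con mean was -0.38, -0.34 and -0.53 in NRF1 KD 1 to 3 and -0.36, -0.36 and -0.16 in double KD 1 to 3. NRF1 KD 3 was the lowest library and double KD 3 the highest, and the other 4 lay between -0.38 and -0.34. Without double KD 3 the median difference over the 40 genes was 0.05, and without NRF1 KD 2 it was 0.15. The sign of the median for the ATPases and for the other base subunits turned without NRF1 KD 3 (-0.01 and -0.03).

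Promoter windows of these genes were searched for the palindrome of alpha-PAL, since its knockdown is common to both groups. The windows came from RefSeq on GRCm38.p6, 300 bases each, from 250 before to 50 after a gene's start. The motif was GCGCANGCGC or its reverse complement GCGCNTGCGC, on either strand. It stood in 4.60% of 32851 windows and in at least 1 window of 5.19% of 27025 genes. Of the 40 measured proteasome genes 33 had a window, and 7 of these held the motif (21.2%). The following 6 are shown because their motif lies before the start, from 5′ to 3′ on the gene's strand with the match in capitals.
Psma2 (chr13:14613095-14613144, plus strand): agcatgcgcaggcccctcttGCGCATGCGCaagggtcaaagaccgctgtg
Psma3 (chr12:70974525-70974574, plus strand): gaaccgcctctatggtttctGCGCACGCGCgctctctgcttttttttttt
Psma4 (chr9:54950778-54950827, plus strand): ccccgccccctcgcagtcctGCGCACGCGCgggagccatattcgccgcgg
Psmc4 (chr7:28050232-28050281, minus strand): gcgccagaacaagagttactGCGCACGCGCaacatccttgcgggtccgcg
Psmc5 (chr11:106256116-106256165, plus strand): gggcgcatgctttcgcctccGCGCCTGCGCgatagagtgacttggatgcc
Psmd14 (chr2:61711594-61711643, plus strand): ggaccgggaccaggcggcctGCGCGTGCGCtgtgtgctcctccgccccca

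The matches end 39 to 159 bases before the start. The 7 proteasome genes with the motif had a median log2 fold change of 0.15 in double KD against NRF1 KD and -0.43 in NRF1 KD against WT con. The 26 with a window and no match had 0.11 and -0.41. Of the 21 called genes 13 had a window, and none held the motif. A match is a description of these letters and not evidence of binding.

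Of 7 genes for immunoproteasome subunits and proteasome activators, 5 were negative and 2 positive (median -0.14), and the highest was the activator Psme4 (log2 fold change 0.13, SE 0.13). Macrophage markers were negative in the same comparison (14 of 14, median -0.73), and their part in these values was not tested. The cytokine-induced core subunit Psmb8 had 523, 614 and 593 normalised counts in NRF1 KD, 386, 324 and 296 in double KD, and 282 and 240 in WT con. It did not pass the adjusted test in limma (log2 fold change -0.79, SE 0.14, adjusted p = 0.0656) but did in DESeq2 (adjusted p = 0.000184). Psmb9 had 192, 247 and 267, then 129, 147 and 135, with 121 and 98.0 in WT con (log2 fold change -0.77, limma adjusted p = 0.145, DESeq2 adjusted p = 0.0111). For both, every double KD library was below every NRF1 KD library. The 3 genes of this list of 7 that rose in NRF1 KD against WT con included both (7.58% of all genes rose there). Of the 7, 0 were called by limma and edgeR, and 3 were lower at an unadjusted p under 0.05, beside 6.78% of all genes.

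The ATPase p97, which extracts ubiquitinated proteins from complexes and contractile filaments, showed no separation of the groups. Vcp, its gene, had 7667, 7520 and 6451 in NRF1 KD, 6895, 7306 and 8383 in double KD, and 10097 and 8546 in WT con (log2 fold change 0.06, SE 0.11, 95% interval -0.19 to 0.31, adjusted p = 0.875). Of 15 genes for p97 and its cofactors, 13 were positive (median 0.06), and neither an adjusted nor an unadjusted p fell under 0.05 by limma, nor an adjusted p by edgeR or DESeq2. In NRF1 KD against WT con, 6 of the 15 fell, where 3.72% of all genes fell.

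Ubiquitin ligases of atrophy had no common direction, and none passed the test. Trim63, the ligase MuRF1 that marks thick-filament proteins, had 13187, 12529 and 12247 in NRF1 KD, 12154, 8895 and 10272 in double KD, and 18335 and 25220.3 in WT con. The log2 fold change was -0.29 (SE 0.14, adjusted p = 0.476), and Trim63 fell against WT con in both groups (-0.77 and -1.05, adjusted p = 0.0138 and 0.00952). Fbxo32, the ligase atrogin-1, had 15003, 13668 and 12631 in NRF1 KD and 11732, 10130 and 12237 in double KD (log2 fold change -0.28, SE 0.11, adjusted p = 0.340). Against WT con it fell in double KD (-0.61, adjusted p = 0.0240) and had -0.33 in NRF1 KD (adjusted p = 0.0991). Every double KD library of both genes lay below every NRF1 KD library. Nedd4 overlapped (log2 fold change 0.12, SE 0.11, adjusted p = 0.723). Over 19 atrophy ligases 10 were positive (median 0.02), and limma, edgeR and DESeq2 called none. At an unadjusted p under 0.05, 1 was higher and 2 were lower, beside 4.45% and 6.78% of all genes. The polyubiquitin gene Ubb had 4250, 4522 and 4027, then 3521, 3492 and 3304 (log2 fold change -0.31, limma adjusted p = 0.186, DESeq2 adjusted p = 0.0422).

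Regulators that respond to loss of nerve had values in both directions, and none passed the limma test. Mstn, the secreted inhibitor of muscle growth myostatin, had 305, 317 and 297 in NRF1 KD, 496, 538 and 535 in double KD, and 496 and 670.2 in WT con. Its log2 fold change of 0.77 (SE 0.13) missed the limma threshold (adjusted p = 0.0624) and passed that of DESeq2 (adjusted p = 0.000145). Gdf5, a growth factor that preserves denervated muscle, had 643, 647 and 542, then 889, 794 and 748, with 2250 and 2463 in WT con (log2 fold change 0.41, adjusted p = 0.186). Both had fallen in NRF1 KD against WT con (-0.91 and -1.95, adjusted p = 0.00541 and 5.62e-05), and double KD lay between for Gdf5 and at WT con for Mstn. Sln, the sarcolipin that inhibits the calcium pump, went the other way, with 12816, 12935 and 10158 in NRF1 KD, 7891, 4191 and 5795 in double KD, and 5246 and 6828 in WT con (log2 fold change -1.04, SE 0.20, adjusted p = 0.0939). Over the 21 genes of this list the median was 0.02. By limma and edgeR 0 were called, and by DESeq2 2 higher (Mstn and Ankrd1) and 1 lower (Sln), beside 0.768% and 1.72% of all genes. At an unadjusted p under 0.05, 5 were higher and 2 lower, beside 4.45% and 6.78%. Myog and Gadd45a, chosen after their values were seen, had log2 fold changes of 0.01 (SE 0.10) and 0.19 (SE 0.12) and fell in NRF1 KD against WT con (-1.01 and -1.32).

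At the nerve-muscle junction, Musk, the receptor kinase that organises it, had 1150, 1058 and 997 in NRF1 KD, 1286, 1260 and 1268 in double KD, and 2367 and 2427 in WT con (log2 fold change 0.25, SE 0.09, adjusted p = 0.284). Chrnb1, an acetylcholine receptor subunit, had 4838, 4691 and 4251, then 5083, 5840 and 6089 (log2 fold change 0.30, adjusted p = 0.271). The fetal receptor subunit Chrng had 3622, 4143 and 3070, then 2683, 3320 and 2696 (log2 fold change -0.31, adjusted p = 0.549). Of 15 junction genes 6 were positive. Limma, edgeR and DESeq2 called none of them, and 3 were higher at an unadjusted p under 0.05, beside 4.45% of all genes.

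Genes of mitochondria had small positive values in double KD against NRF1 KD, as did the 10 markers of muscle fibres (10 of 10 positive, median 0.15), while the 14 macrophage markers were negative (median -0.73). The part of these cell types in the values was not tested. All 36 measured nuclear genes of complex I, the first enzyme of the respiratory chain, had a positive log2 fold change (median 0.14). Of the 39 measured genes of complexes II to V, 35 were positive (median 0.15). Limma, edgeR and DESeq2 called 0 in both lists. At an unadjusted p under 0.05, 3 of the 75 were higher and 1 lower, beside 4.45% and 6.78% of all genes. Ndufb8 had 4311, 4259 and 3603 in NRF1 KD and 4543, 4785 and 4809 in double KD, with 4584 and 4260.0 in WT con (log2 fold change 0.22, SE 0.09, adjusted p = 0.394). Cox6a1, the isoform of tissues other than muscle, had 1173, 1201 and 1342, then 1047, 1040 and 1078, with 775 and 819 in WT con (log2 fold change -0.23, adjusted p = 0.353). The summed level of the 36 complex I genes was 207330 to 263022 normalised counts in NRF1 KD and 228419 to 286761 in double KD, and 240666 and 260286 in WT con, so the groups overlapped. The median of complex I ranged from 0.06 without double KD 3 to 0.22 without NRF1 KD 1.

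Mitochondrial ribosomal proteins, which translate the genes of mitochondrial DNA, were also mostly positive. Of 70 measured genes 66 were positive (median 0.12), and for 13 every double KD library was higher, beside 8.03% of all genes. Limma, edgeR and DESeq2 called none. At an unadjusted p under 0.05, 7 were higher and 1 lower, beside 4.45% and 6.78% of all genes. Mrps35 had 841, 779 and 759 in NRF1 KD, 968, 1025 and 1215 in double KD, and 779 and 921 in WT con (log2 fold change 0.43, SE 0.11, adjusted p = 0.189). Mrpl48 was lower, with 1882, 1582 and 1569, then 1273, 1249 and 1471 (log2 fold change -0.33, adjusted p = 0.414). Its processed pseudogene Mrpl48-ps was among the called genes that rose, at 0, 0.894 and 0 in NRF1 KD and 91.2, 70.1 and 80.4 in double KD. WT con 2 and 3 were split for this pair too, at 1989 and 1347 for Mrpl48 and 4.35 and 107.7 for Mrpl48-ps. How reads of the 2 copies were assigned is uncertain. The 9 measured mitochondrially encoded genes had a median of 0.04, with mt-Co1 at 375526 to 478507 normalised counts in NRF1 KD and 426493 to 503301 in double KD. The 23 measured genes of alpha-PAL and mitochondrial biogenesis had a median of 0.07, and limma, edgeR and DESeq2 called none.

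In fuel use, Slc2a4, the insulin-responsive glucose transporter GLUT4, had 7492, 6492 and 6312 normalised counts in NRF1 KD and 7865, 9784 and 9512 in double KD, with 8827 and 6954 in WT con (log2 fold change 0.42, SE 0.12, adjusted p = 0.225). Pdk4, the kinase that restrains glucose oxidation, had 23639, 20584 and 18104 in NRF1 KD and 16076, 7296 and 9304 in double KD, with 18935 and 18413 in WT con. Its log2 fold change was -1.004 (SE 0.23, limma adjusted p = 0.145, DESeq2 adjusted p = 0.00391), and double KD 1 was the nearest of its group to NRF1 KD. Ucp3, an uncoupling protein of fat oxidation, had 3408, 1478 and 1233 in double KD and 3221 to 3674 in NRF1 KD, so that double KD 1 lay inside the range of NRF1 KD. Over 20 genes of glycolysis and glycogen the median was -0.04, and over 19 of fatty acid oxidation 0.02. Limma and edgeR called none in either list, and DESeq2 called Pdk4 alone, as lower, beside 1.72% of all genes. At an unadjusted p under 0.05, 2 of the 20 were higher and 2 of the 19 lower, beside 4.45% and 6.78% of all genes.

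Contractile genes differed between libraries of the same group. Pvalb, the calcium buffer of fast fibres, had 133336, 109898 and 101436 in NRF1 KD, 158658, 140331 and 159721 in double KD, and 249386 and 242474 in WT con (log2 fold change 0.42, SE 0.16, limma adjusted p = 0.351, DESeq2 adjusted p = 0.0331). Slow-fibre genes were highest in double KD 2. Their summed level was 89257, 144396 and 129287 in double KD 1 to 3 and 86602 to 112921 in NRF1 KD. Myl2, a slow myosin light chain, had 230.4, 462 and 135 in NRF1 KD and 343, 3234 and 761 in double KD (log2 fold change 1.95, SE 0.67, adjusted p = 0.297). Double KD 2 was far above the other libraries, and without it the median over 11 slow-fibre genes was 0.08 in place of 0.39. Tnni1, the slow troponin I, had 992, 888 and 768, then 1096, 3038 and 1488 (log2 fold change 0.96, adjusted p = 0.235). Over 14 fast-fibre genes the median was 0.19. Limma and edgeR called none in either list, and DESeq2 called Pvalb alone, as higher, beside 0.768% of all genes. At an unadjusted p under 0.05, 3 of each list were higher, beside 4.45% of all genes.

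Chaperones of the cytosol, which refold damaged proteins, were mostly positive. Of 22 genes 20 were positive (median 0.25), beside 51% of all genes, and 8 were higher at an unadjusted p under 0.05, beside 4.45%. Of the 22, limma and edgeR called none, and DESeq2 called 1 higher, beside 0.768% of all genes. That gene was Dnajb4, a cochaperone of Hsp70, with 4214, 3711 and 3868 in NRF1 KD, 4698, 6235 and 7281 in double KD, and 2798 and 3173 in WT con (log2 fold change 0.61, SE 0.14, limma adjusted p = 0.149, DESeq2 adjusted p = 0.00541). Hspb3, a small heat shock protein of muscle, had 1894, 1818 and 1756, then 1929, 2551 and 3073 (log2 fold change 0.44, SE 0.14, adjusted p = 0.271). For both, every double KD library was above every NRF1 KD library, and double KD 1 was the nearest to them. Against WT con both rose in double KD (1.00 and 1.02, adjusted p = 0.0112 for each), and Hspb3 rose in NRF1 KD as well (0.58, adjusted p = 0.0443). The 2 constitutive chaperones Hspa8 and Hsp90ab1 had log2 fold changes of -0.06 (SE 0.12) and -0.05 (SE 0.13). The median of the list ranged from 0.17 to 0.33 when each library was left out.

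The lists of immune genes, chosen with earlier results of these data known, had negative medians and no limma calls. Outside them, the called genes Plac8 and Nlrp1b fell, and the interferon-induced Gbp2b and Ifi44l rose. Of 14 measured macrophage markers all 14 were negative (median -0.73). At an unadjusted p under 0.05, 10 were lower (6.78% of all genes were), and DESeq2 called 5 lower (1.72% of all genes). Cd68, a lysosomal protein of macrophages, had 1178, 2097 and 1709.7 in NRF1 KD, 1045, 944 and 985 in double KD, and 738 and 735 in WT con (log2 fold change -0.71, SE 0.17, limma adjusted p = 0.154). Tyrobp, an adaptor of myeloid receptors, had 672, 1089 and 1207, then 684, 501 and 448, with 219 and 301 in WT con (log2 fold change -0.84, SE 0.23, adjusted p = 0.197). The summed level of the 14 markers was 19752, 39078 and 40501 in NRF1 KD 1 to 3, 24215, 17731 and 15389 in double KD 1 to 3, and 8477 and 11294 in WT con 2 and 3. NRF1 KD 1 stood apart from the other libraries of its group and inside the range of double KD. Without it the median of the markers was -1.03, and without NRF1 KD 2 it was -0.55. All 14 rose in NRF1 KD against WT con, where 7.58% of all genes did. In double KD against WT con 2 rose, beside 2.39% of all genes.

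Genes of antigen presentation and interferon response were lower alongside those markers. All 11 genes of antigen presentation were negative (median -0.61), with 8 at an unadjusted p under 0.05 (6.78% of all genes), 0 called by limma and edgeR and 4 by DESeq2 (1.72% of all genes). B2m, the light chain of class I molecules, had 5554, 6384 and 6853 in NRF1 KD, 4740.2, 3827 and 3781 in double KD, and 3547 and 3274 in WT con (log2 fold change -0.61, SE 0.11, limma adjusted p = 0.0824, DESeq2 adjusted p = 0.000559). H2-K1, a class I heavy chain, had 4268, 4983 and 5353, then 3496, 2611 and 2186 (log2 fold change -0.84, SE 0.16, limma adjusted p = 0.0832). Of 21 interferon genes 17 were negative (median -0.49). At an unadjusted p under 0.05, 12 were lower and 1 higher, beside 6.78% and 4.45% of all genes. For 8 every double KD library was lower (8.28% of all genes). Irf7, a transcription factor induced by interferon, had 331, 501 and 516, then 275, 299.9 and 245, with 74.0 and 82.4 in WT con (log2 fold change -0.69, SE 0.19, adjusted p = 0.186). None of the 21 was called by limma or edgeR, and DESeq2 called 2 lower (Irf7 and Gbp2), beside 1.72% of all genes. The 4 positive members were Ifi27, Ifi44 and Ifi35, at 0.05, 0.05 and 0.08, and Xaf1, with 99.9, 338 and 223 in NRF1 KD and 510.0, 466 and 359 in double KD (log2 fold change 1.16, SE 0.38, adjusted p = 0.271). The part of macrophage content in these lists was not tested. The summed interferon level was 7217, 8712 and 9057 in NRF1 KD and 7443, 7200 and 6893 in double KD, so that NRF1 KD 1 again lay within the range of double KD.

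Early response genes, which are switched on within minutes of a stimulus, separated the groups by library in their summed level. It was 21150, 22231 and 21011 in NRF1 KD and 18704, 19413 and 20144 in double KD, with 19653 and 19299 in WT con. Among the 53 lists summed in this way, other lists were lower without overlap too. They were metallothioneins and zinc (15005 to 18538 against 8688 to 12210), glucocorticoid and FoxO response (56439 to 64445 against 38817 to 53809), and T and B lymphocyte markers. The 20S alpha genes were higher without overlap, and the groups overlapped in the remaining lists. Of single genes, 8.28% were lower and 8.03% higher in every double KD library. Of the 16 early response genes 13 were negative (median -0.42). For 8 every double KD library was lower, beside 8.28% of all genes. At an unadjusted p under 0.05, 8 were lower, beside 6.78%. Egr2, a zinc-finger factor, had 132, 220.0 and 151 in NRF1 KD, 55.0, 57.2 and 51.1 in double KD, and 109 and 44.6 in WT con (log2 fold change -1.57, SE 0.32, limma adjusted p = 0.104, DESeq2 adjusted p = 0.000387). Ier3 had 757, 773 and 739.5, then 539, 572 and 586, with 415 and 373 in WT con (log2 fold change -0.42, SE 0.10, adjusted p = 0.148). None was called by limma or edgeR, and DESeq2 called Fos, Egr1, Egr2 and Ier3 lower (1.72% of all genes were). WT con 2 exceeded WT con 3 for Egr2, so the unperturbed libraries were also spread.

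Proliferation and matrix genes were also lower in double KD by median. Of 21 cell cycle genes 20 were negative (median -0.63), and 7 were lower at an unadjusted p under 0.05, beside 6.78% of all genes. The median was -0.15 over the 9 genes averaging 5 CPM or more, -0.23 on the variance-stabilised values and -0.36 without NRF1 KD 3. Only DESeq2 called any, the single gene Mcm6 (1.72% of all genes were called lower). Mcm6, a subunit of the replicative helicase, had 343, 444 and 495 in NRF1 KD, 295, 261 and 262 in double KD, and 326 and 223 in WT con (log2 fold change -0.63, SE 0.18, limma adjusted p = 0.207). Of 25 matrix genes 21 were negative (median -0.20), but the sign of the median turned without double KD 3 (0.04). Timp1, an inhibitor of matrix proteases, had 1803, 2524 and 2590.5 in NRF1 KD and 1143, 1207 and 1815 in double KD (log2 fold change -0.74, SE 0.19, limma adjusted p = 0.166, DESeq2 adjusted p = 0.0124). Limma and edgeR called none of the 25, and DESeq2 called Timp1 alone, as lower, beside 1.72% of all genes. At an unadjusted p under 0.05, 1 was lower, beside 6.78% of all genes. Markers of tendon and fat were higher by median (0.70 and 0.68), but neither kept its size. The fat median was -0.09 over the 6 markers averaging 5 CPM or more, 0.16 on the variance-stabilised values, 0.16 without double KD 2 and 0.23 without NRF1 KD 1. The tendon median was 0.15 with edgeR, -0.05 without NRF1 KD 2 and 1.32 without NRF1 KD 3. Summed tendon markers were 9636, 9498 and 21544 in NRF1 KD and 18430, 16976 and 12599 in double KD.

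**Figure D5:**
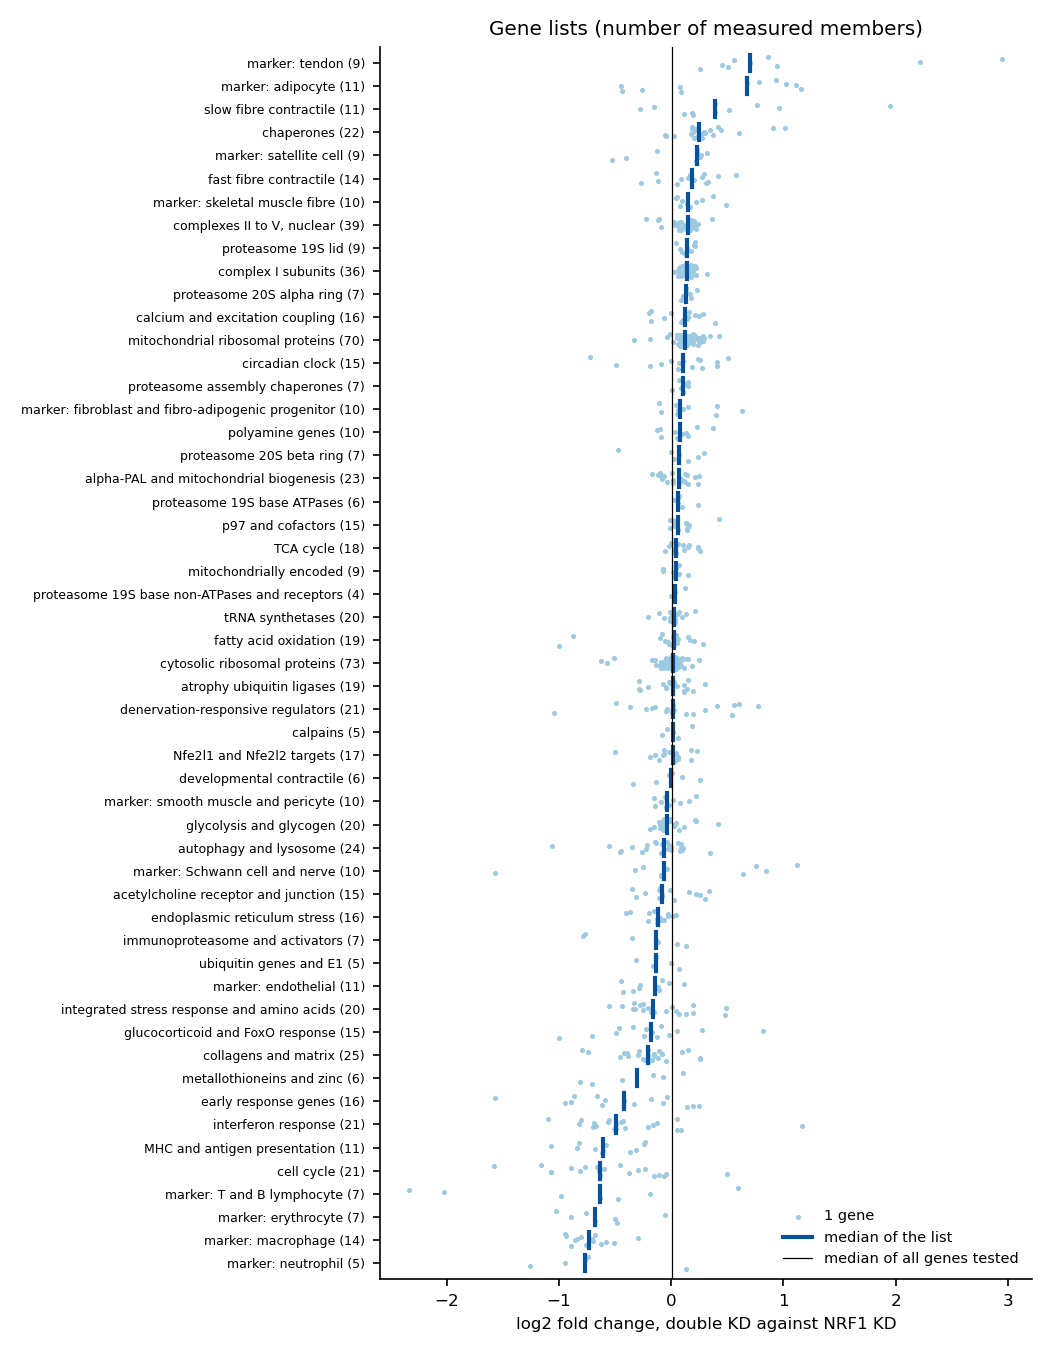
Log2 fold change of double KD against NRF1 KD (x) for the measured members of each gene list (y, number of members), with the median of the list as a bar and the median of all genes as a line. Lists of immune cells, antigen presentation, interferon and cell cycle have medians left of 0, and proteasome and respiratory chain lists lie just right of 0.

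In the first table, which shares no library with this one, denervated muscle labelled PAX4 KO was compared with denervated WT. The edgeR quasi-likelihood test called 3 genes higher (0.0186% of 16146) and 0 lower, with 1308 (8.1%) and 781 (4.84%) at an unadjusted p under 0.05, and DESeq2 called 127 and 65. Of the 21 genes called in double KD against NRF1 KD, 14 were tested there by edgeR and 0 were called. DESeq2 tested 19 and called 1, edgeR with no filter tested 19 and called 2, and edgeR without PAX4 KO 1 tested 15 and called 1. The sign was the same for 6 of the 14 and opposite for 8. The medians over lists can be set beside each other as values. For the 40 proteasome genes it was -0.18 in PAX4 KO against WT and 0.11 in double KD against NRF1 KD. For complex I it was -0.22 and 0.14, for macrophage markers 0.87 and -0.73, and for interferon genes 0.61 and -0.49. Other lists had the same sign in both: tendon markers 0.72 and 0.70, slow-fibre genes 0.28 and 0.39, fat markers 0.21 and 0.68, and erythrocyte markers -0.78 and -0.68. The erythrocyte median of -0.68 turned to 0.19 without NRF1 KD 2. Summed erythrocyte markers were 7656, 44224 and 5741 normalised counts in NRF1 KD 1 to 3. Muscle fibre markers had medians of -0.19 and 0.15, with 3 of 10 positive in PAX4 KO against WT. All 36 complex I genes were negative in PAX4 KO against WT and positive in double KD against NRF1 KD. All 14 macrophage markers were the reverse. Over all genes, 7411 of 14511 were positive in PAX4 KO against WT, and 51% in double KD against NRF1 KD. Limma called none of these list members in this table and edgeR none in the first. Genes of a list can move together, and the part of cell types in these values was not tested. The tables were normalised separately, and the difference between these effects was not tested.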

How the data were processed

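RNA-seq of mouse muscle was analysed from the authors' tables; per the labels' protocols RNA was taken with TRIzol and made into libraries with a SMARTER mRNA-Seq kit. Per the submitters' processing notes the genome build was mm10 (GRCm38). The aligner, the counter and the use of strand are not given in the sources consulted. The second table holds log2 values that the authors had variance-stabilised. Its deposited mean column is a signal, the mean of counts divided by size factors. Deposited scores (Wald statistics), p-values and log2 fold changes of the authors were not used for results. The stabilised values were inverted to normalised counts, and reads recovered from them were whole for 100% of values within 0.05. The first table holds counts per gene as deposited by the authors.

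Differences in the second table were fitted with limma 3.58.1 (R 4.3.3) with a trend, on log2(normalised count + 1), over all 8 libraries and 15624 genes with no filter, with Benjamini-Hochberg adjustment. Fold changes on this scale understate changes of low genes. The first table was fitted by group with edgeR 4.0.16 (quasi-likelihood, TMM, filterByExpr), over all its libraries, innervated WT included. Innervated and denervated WT columns there share numbers in their names, which the fit did not use. Alternatives were edgeR and DESeq2 1.42.0 on recovered reads. Scripts were tested on simulated data. Other alternatives were the pseudocount, a filter, the scaling, the libraries in the fit and leaving out each library.

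Members and lists were chosen with earlier results of these data known. Named genes were the targets Nrf1 and Pax4, then Trim63, Fbxo32, Nedd4, Vcp and Psmc2, then up to 12 called genes in each direction with a mean of at least 100 normalised counts, no overlap and a settled symbol, then up to 2 members of a list in each direction by smallest p (3 where called). Genes named outside this rule were chosen after their values were seen. A test of 3 libraries against 3 for a single gene by exact permutation cannot go below p = 0.1.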

Additional observations from a re-analysis of the deposited data

Results flagged for a closer look

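Ankrd55, Hddc3 and Hemk1 rose in double KD against NRF1 KD, with no overlap between the libraries, and had lower values in every PAX4 KO library than in every denervated WT library of the first table. In PAX4 KO against WT the log2 fold change was -0.97 for Ankrd55, -1.89 for Hddc3 and -0.21 for Hemk1, and none passed the edgeR test. Only opposite orders were flagged. The called gene 2610035D17Rik was lower in both comparisons. It stood at 3.58, 3.75 and 3.30 CPM in PAX4 KO and 5.37, 7.27 and 5.44 in denervated WT (log2 fold change -0.77, edgeR adjusted p = 0.283). Hmga1b was higher in both, at 0.0846, 2.26 and 2.69 CPM against at most 0.0241, and was not tested in the first table. The difference between the effects in the 2 tables was not tested.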

How the results depend on the processing

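The counts of called genes (12 higher, 9 lower) depended on the setting. They were 1 and 0 with a pseudocount of 0.1, and 1 and 0 when only the 10343 genes averaging 5 CPM or more were tested. DESeq2 gave 120 and 269, and a fit on only the 6 libraries gave 45 and 34. When each library was left out in turn, the higher count ranged from 1 to 69 and the lower from 0 to 124. The cause was not tested. No called gene changed sign under any of these settings. With the replicate number as a block the counts were 24 and 6. Deviations of same-numbered libraries from their group means had r = -0.39, -0.11 and -0.45. With so few libraries in each group, these values cannot show whether same-numbered libraries share more than a number.

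Called genes with the same sign in PAX4 KO numbered 5 to 9 when each library was left out. Among named genes that were not called, Myog had -0.00245 with TMM scaling and -0.00188 with edgeR. With a library left out the log2 fold change ranged from -0.0686 to 0.0845 for Myog, -0.119 to 0.0637 for Hsp90ab1, -0.145 to 0.0629 for Hspa8, -0.0249 to 0.142 for Psmc2, -0.0112 to 0.118 for Psmc5, -0.0189 to 0.122 for Vcp, -0.0217 to 0.113 for Ifi27, -0.235 to 0.299 for Ifi44 and -0.0157 to 0.223 for Psme4. Of 54 list medians, 24 changed sign under at least 1 alternative. Comparisons with WT con were fitted once and have no alternatives.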
